A study of Homo sapiens with 6 samples.

Results

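Activins and bone morphogenetic proteins (BMPs) are secreted dimers of the TGF-beta superfamily, and the 10 genes described here cover their ligands (INHBA, INHBB, BMP2, BMP4, BMP7), a secreted antagonist (FST), an intracellular inhibitor (SMAD6) and the ID genes that BMP signals switch on (ID1, ID2, ID3). They were chosen by name, with earlier results of these data known. Every probe set whose platform annotation carried exactly 1 of these symbols was used. This gave 22 probe sets out of 54613 on the array, for 10 of 19775 genes. The cells were OVCA432, an established human line of high grade serous ovarian cancer. In 3 samples the cells had received 200 ng/mL of recombinant human microfibrillar associated protein 5 (MFAP5), a glycoprotein of extracellular microfibrils, and in 3 control samples they had received its solvent. All cells had been without serum for 24 h before that, stayed in serum-free RPMI medium, and were harvested at 48 h. The design thus holds 1 cell line, 1 dose and 1 time, with MFAP5 added to the medium as a purified protein, and the labels describe the 3 samples of a group as independent without saying whether they came from separate cultures, so the p-values measure the spread between these samples. The values were MAS5 signals, which are linear intensities.

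Activins are dimers of inhibin beta subunits, and INHBA and INHBB encode the subunits beta A and beta B. They bind the type II receptors ACVR2A and ACVR2B, and the type I receptor ACVR1B then phosphorylates SMAD2 and SMAD3. BMPs act through BMPR2 and the type I receptors ACVR1, BMPR1A and BMPR1B on SMAD1, SMAD5 and SMAD9, which activate the ID genes and, as feedback, SMAD6 and SMAD7. ID proteins have a helix-loop-helix domain but no DNA-binding region, and they hold E proteins such as TCF3, TCF4 and TCF12 away from DNA.

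The signals on the 6 arrays had been brought to 1 common trimmed mean, and over all probe sets the correlation of log2 signals was 0.936 to 0.942 within a group and 0.931 to 0.936 across groups. Background was read from the brightest of 27 control probe sets for Bacillus RNA, at 26.4 to 55.9 depending on the array, and 27209 to 36073 probe sets per array lay above it. All 10 markers of epithelial and ovarian carcinoma cells lay above it on every array, with a summed signal of 97180 to 106100 with MFAP5 and 83230 to 94770 in control cells, and the part of this difference in the results was not tested. Of 10 fibroblast markers 3 (COL1A1, COL1A2 and ACTA2) did so, while COL3A1, DCN and PDGFRA stayed below it on every array, and the summed fibroblast signal was 494 to 538 with MFAP5 and 429.9 to 516 in control cells. None of 6 endothelial and 6 leukocyte markers lay above it on every array. RNA quality was read from the log2 signal of the 3' end less that of the 5' end, which averaged -0.101 with MFAP5 and -0.131 in control cells for GAPDH (exact permutation p = 0.5) and 0.282 and 0.296 for ACTB (exact permutation p = 0.6). Precision is limited by the number of arrays.

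ID1, ID3, INHBB and, less securely, SMAD6 were higher with MFAP5 on their brightest probe set, and no member was called lower. Their upstream sequences are shown here because these are the members called higher on that probe set. Whether they changed jointly was not tested. Each line gives the 250 bases before the RefSeq start site in build GRCh38.p14, 5′ to 3′ on the gene's own strand. The INHBB window lies at chr2:120345886-120346135 on the plus strand, the SMAD6 window at chr15:66701986-66702235 on the plus strand, the ID1 window at chr20:31605039-31605288 on the plus strand and the ID3 window at chr1:23559502-23559751 on the minus strand. Capitals mark matches to 5 short motifs, searched on both strands.
INHBB: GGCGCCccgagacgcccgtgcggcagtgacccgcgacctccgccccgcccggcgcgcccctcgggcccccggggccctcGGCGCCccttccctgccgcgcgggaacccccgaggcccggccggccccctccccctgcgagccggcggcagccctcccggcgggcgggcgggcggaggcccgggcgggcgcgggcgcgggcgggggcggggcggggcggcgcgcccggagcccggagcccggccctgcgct
SMAD6: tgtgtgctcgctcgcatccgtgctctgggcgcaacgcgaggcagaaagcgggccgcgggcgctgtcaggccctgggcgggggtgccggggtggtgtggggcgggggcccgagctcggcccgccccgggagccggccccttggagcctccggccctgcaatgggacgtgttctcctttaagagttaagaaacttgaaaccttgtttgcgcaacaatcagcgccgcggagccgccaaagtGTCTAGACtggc
ID1: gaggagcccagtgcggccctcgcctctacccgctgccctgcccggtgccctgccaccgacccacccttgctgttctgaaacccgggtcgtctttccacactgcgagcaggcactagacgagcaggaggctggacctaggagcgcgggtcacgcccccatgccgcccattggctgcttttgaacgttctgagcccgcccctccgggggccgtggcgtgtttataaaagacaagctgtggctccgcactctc
ID3: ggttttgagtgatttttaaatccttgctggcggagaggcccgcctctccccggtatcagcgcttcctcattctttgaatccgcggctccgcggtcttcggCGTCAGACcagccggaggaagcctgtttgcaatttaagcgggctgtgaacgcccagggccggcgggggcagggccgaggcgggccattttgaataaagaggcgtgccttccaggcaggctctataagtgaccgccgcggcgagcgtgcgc

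The motifs were GGCGCC and CAGAC, known as binding sequences of SMAD proteins, the SMAD palindrome GTCTAGAC, and TGACGTCA with its shorter part TGACG, the element bound by the factor CREB. INHBB held GGCGCC at 2 places, starting 250 and 171 bases before the start site. This motif occurred at least once in 16.4% of the 35116 RefSeq windows of this length. Of the bases in the INHBB window, 89.6% were G or C. ID3 held overlapping matches to TGACG and CAGAC, starting 150 and 147 bases before the start site, and these motifs occurred in 21.2% and 38.0% of all windows. SMAD6 held GTCTAGAC, 12 bases before its start site, a motif present in 64 windows, or 0.182%. No match to any of the 5 motifs lay in the ID1 window, and TGACGTCA, found in 1.65% of all windows, was in none of these 4. The motifs were searched after the values were known, and a match describes letters in the window, not a bound site. Of the 10 members 8 had a window in the table. Among those not shown, BMP4, which was below background on every array, also held GGCGCC and CAGAC.

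Of the 22 probe sets, 13 passed the brightness filter, a mean log2 signal over all 6 arrays at or above the median of the array (a signal of 53.7), and were tested with limma. They belonged to 7 genes (INHBB, BMP7, FST, SMAD6, ID1, ID2 and ID3). Among the 13, 5 were called higher with MFAP5 at an adjusted p below 0.05 (38.5%), against 13.5% of all 27307 probe sets tested, and 0 were called lower by limma, against 11.8% of all, which makes 25.2% of all called in either direction (0 also at an unadjusted p below 0.05). Counted by the brightest probe set, 4 of the 7 genes were called higher (57.1%), against 14.6% of all 12216 genes tested. The members were chosen with earlier results of these data known, so their excess over all genes is not an independent result. The median log2 fold change was 0.16 over the 13 probe sets and 0.02 over all probe sets tested. The MFAP5 and control signals did not overlap for 6 of the 13, against 41.0% of all.

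**Figure D1:**
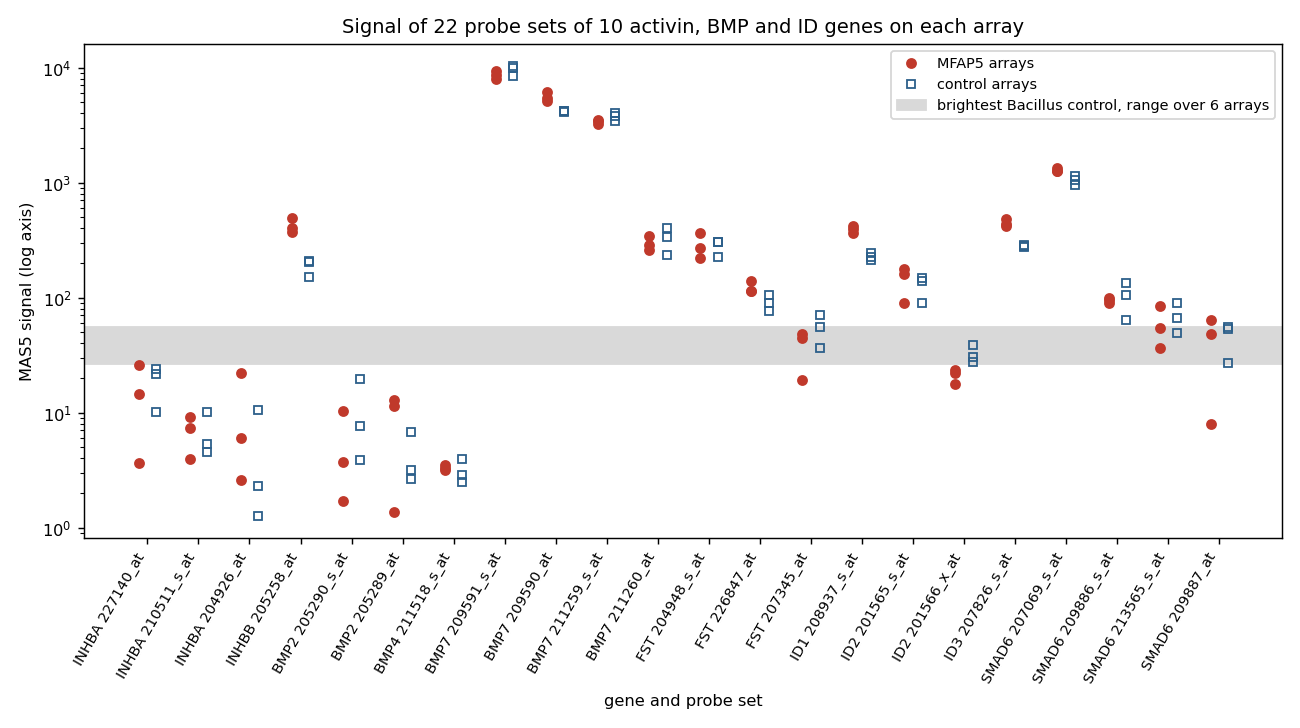
MAS5 signal (log axis) of the 22 probe sets of the 10 genes on each array, with filled circles for the 3 MFAP5 arrays, open squares for the 3 control arrays and a grey band for the brightest Bacillus control over the 6 arrays (26.4 to 55.9). INHBA, BMP2 and BMP4 lie below the band on every array, BMP7 has the highest signals, and the MFAP5 points of INHBB, ID1 and ID3 lie above all their control points.

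Of the activin subunits among the members, the cells had a measurable signal for beta B and none for beta A. INHBB (205258_at) gave signals of 404, 489 and 375 with MFAP5, against 207, 203 and 149.9 in control cells. Every MFAP5 array was above every control array. The mean was 423 ± 59 with MFAP5 and 186 ± 32 in control cells (SD, n = 3 each), a 2.28-fold rise with a 95% interval from 1.75 to 2.96 (limma adjusted p = 0.000767). In these bulk samples, more cells with a transcript and more of it per cell cannot be told apart. INHBB had the largest rise of the 13 probe sets tested, and 1.68% of all tested probe sets had a higher log2 fold change. The call held in all 14 alternative fits in which INHBB was tested, with a log2 fold change of 1.0 to 1.27 and an adjusted p of at most 0.00692. INHBB had only 1 probe set, so the fit that averages the probe sets of a gene could not move its change.

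INHBA, the subunit of activin A, stayed below the Bacillus controls on all 6 arrays with each of its 3 probe sets. The brightest, 227140_at, gave 25.7, 14.4 and 3.63 with MFAP5, against 24.0, 21.7 and 10.1 in control cells. The 2 groups overlapped, and no fold change is given because both were below background.

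BMP2 and BMP4, ligands of the classical BMP pathway, were below background in the same way. The brighter BMP2 probe set (205290_s_at) gave 10.4, 3.70 and 1.71 with MFAP5, against 19.6, 7.58 and 3.88 in control cells. BMP4 (211518_s_at) gave 3.47, 3.28 and 3.17 with MFAP5, against 2.86, 3.98 and 2.49 in control cells. Neither gene passed the brightness filter, so neither was tested. A fall or a small change in either would not have been detectable at this signal.

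BMP7, a ligand that signals through ACVR1, BMPR1A and BMPR1B, was bright, and its probe sets disagreed. The brightest, 209591_s_at, gave 9330, 8695 and 7963 with MFAP5, against 9897, 10240.5 and 8416 in control cells. These groups overlapped, and the difference of -0.13 ± 0.09 in log2 (SE) was not called (limma adjusted p = 0.295). By contrast, 209590_at gave 6091, 5152 and 5494 with MFAP5, against 4136, 4183 and 4206 in control cells. There all MFAP5 arrays were above all control arrays, and the 1.33-fold rise (95% interval 1.19 to 1.49) was called (limma adjusted p = 0.00226). Centring the arrays on hybridisation controls ended this call (adjusted p = 0.0735, within a range of 0.00108 to 0.0735 over 14 alternatives).

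The other BMP7 probe sets sided with the brightest. The probe set 211259_s_at gave 3408, 3503 and 3246 with MFAP5, against 4010, 3793 and 3433 in control cells, and was not called (-0.14 ± 0.07 in log2, SE, limma adjusted p = 0.187). A dimmer one, 211260_at, gave 261, 284 and 342 with MFAP5, against 339, 406 and 236 in control cells, with overlapping groups (limma adjusted p = 0.702). Relative to 209591_s_at on the same array, 209590_at was 0.55 higher on the log2 scale with MFAP5 than in control cells, and relative to 211259_s_at 0.56 higher. For both of these ratios every MFAP5 array exceeded every control array, which with 3 arrays a group gives the smallest exact permutation p possible, 0.1. Relative to the dimmer 211260_at the difference was 0.54, with overlapping groups (exact permutation p = 0.2). The comparison was chosen after the values were seen. With the BMP7 probe sets averaged, the log2 fold change was 0.0043 (limma adjusted p = 0.976), so BMP7 as a gene is not counted as changed. Centred on array medians, the brightest probe set and 211259_s_at were instead called lower (-0.27, adjusted p = 0.0234, and -0.28, adjusted p = 0.011), and both were also called lower without control replicate 3 (-0.22, adjusted p = 0.0459, and -0.205, adjusted p = 0.0498). Over all alternatives their adjusted p ranged from 0.0234 to 0.976 and from 0.011 to 0.466.

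**Figure D2:**
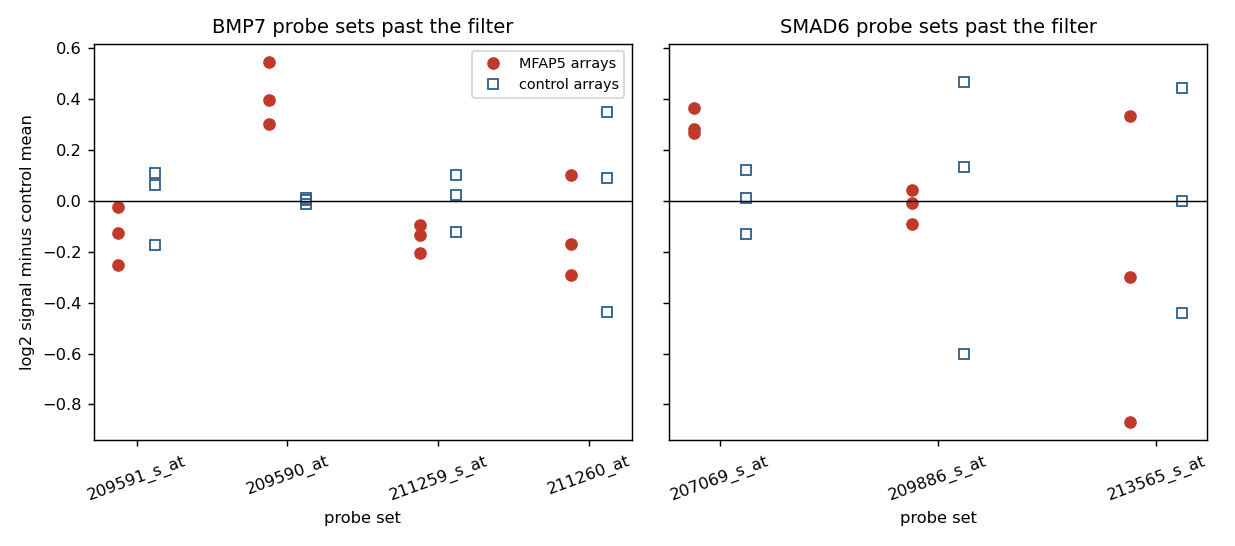
Log2 signal of each array minus the mean of the control arrays, for the BMP7 and SMAD6 probe sets past the brightness filter, with filled circles for MFAP5 arrays and open squares for control arrays. Only 209590_at of BMP7 and 207069_s_at of SMAD6 have all MFAP5 arrays above all control arrays, while the other probe sets of these genes overlap.

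FST encodes follistatin, which binds activins and keeps them from their receptors. Its brightest probe set, 204948_s_at, gave 272, 368 and 221 with MFAP5, against 305, 305 and 226 in control cells. The groups overlapped, and the fold of 1.02 had a 95% interval from 0.745 to 1.39 (limma adjusted p = 0.944). A second FST probe set, 226847_at, gave 115, 114 and 139 with MFAP5, against 90.5, 76.7 and 105 in control cells. Those groups did not overlap, but the difference of 0.44 ± 0.21 in log2 (SE) did not pass the test (limma adjusted p = 0.162). The third, 207345_at, was below the filter, with 44.3, 19.2 and 48.6 with MFAP5, against 69.9, 54.95 and 36.4 in control cells. FST therefore had no called probe set beside the called rise of INHBB. The difference between these changes was not tested.

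ID1 and ID3, inhibitors of E proteins and among the most direct targets of BMP signals, rose to a similar degree. ID1 (208937_s_at) gave 420.2, 399 and 365 with MFAP5, against 243, 224 and 211 in control cells. All MFAP5 arrays were above all control arrays, with means of 395 ± 28 with MFAP5 and 226 ± 16 in control cells (SD, n = 3 each). The 1.75-fold rise had a 95% interval from 1.43 to 2.13 (limma adjusted p = 0.0015). ID3 (207826_s_at) gave 418, 479 and 440.0 with MFAP5, against 278, 288 and 278 in control cells. Its control arrays lay close together, at 281 ± 6, and the MFAP5 arrays above them, at 446 ± 31 (SD, n = 3 each), a 1.58-fold rise with an interval from 1.32 to 1.89 (limma adjusted p = 0.00247). Both calls held in all 14 alternative fits in which these probe sets were tested, every scaling included, with a log2 fold change of 0.67 to 0.86 for ID1 and 0.52 to 0.71 for ID3. Each gene had only 1 probe set, so the fit that averages the probe sets of a gene could not move these changes.

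ID2 did not pass the test. Its brightest probe set, 201565_s_at, gave 161, 89.5 and 178 with MFAP5, against 89.4, 139.7 and 147 in control cells. Each group had 1 array near 89 and 2 arrays well above it, so the groups overlapped. The fold of 1.12 had a 95% interval from 0.708 to 1.76 (limma adjusted p = 0.736), which includes the folds of ID1 and ID3. A second ID2 probe set, 201566_x_at, was below the filter, with 22.2, 23.4 and 17.7 with MFAP5 and 30.5, 38.9 and 27.3 in control cells, and only 1 of these 6 values was above the Bacillus controls. A probe set shared by ID2 and ID2B was left out by the rule.

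The changes of the ID genes were also compared with each other, as the difference of log2 signals on each array. With MFAP5, ID1 changed by 0.65 ± 0.43 (SE) more than ID2 on the log2 scale, and by 0.14 ± 0.11 more than ID3, and the value of ID2 less ID3 was -0.50 ± 0.42 (exact permutation p = 0.3 for each, 0.4 adjusted over 7 pairs of members). An unequal response of ID2 was thus not shown, and 3 arrays a group allow no p below 0.1. The other 4 pairs contain INHBA, BMP2 or BMP4, whose signals were below background, and are not read.

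SMAD6, which blocks BMP receptors and their SMADs and is itself a BMP target, was higher on its brightest probe set. There, 207069_s_at gave 1272, 1346 and 1257 with MFAP5, against 1055, 954 and 1136 in control cells. The groups did not overlap, and the 1.24-fold difference (95% interval 1.08 to 1.41) was just past the threshold (limma adjusted p = 0.0285). The call was lost without any 1 of 5 arrays: MFAP5 replicate 1 (adjusted p = 0.0501), 2 (0.111) or 3 (0.055), or control replicate 1 (0.0684) or 2 (0.107). It was also lost with no brightness filter (0.0503), without an intensity trend (0.0728), with centring on array medians (0.223) or hybridisation controls (0.352), and with the SMAD6 probe sets averaged (0.993), within a range of 0.0166 to 0.993 over 15 alternatives. The dimmer 209886_s_at gave 98.9, 90.1 and 95.4 with MFAP5, against 132.8, 105 and 63.3 in control cells. Another, 213565_s_at, gave 54.1, 36.3 and 83.7 with MFAP5, against 48.9, 66.4 and 90.3 in control cells. Neither was called (limma adjusted p = 0.968 and 0.621), and both sets of arrays overlapped. The fourth SMAD6 probe set, 209887_at, was below the filter, at 7.91 to 63.3 with MFAP5 and 27.2 to 55.7 in control cells.

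**Figure D3:**
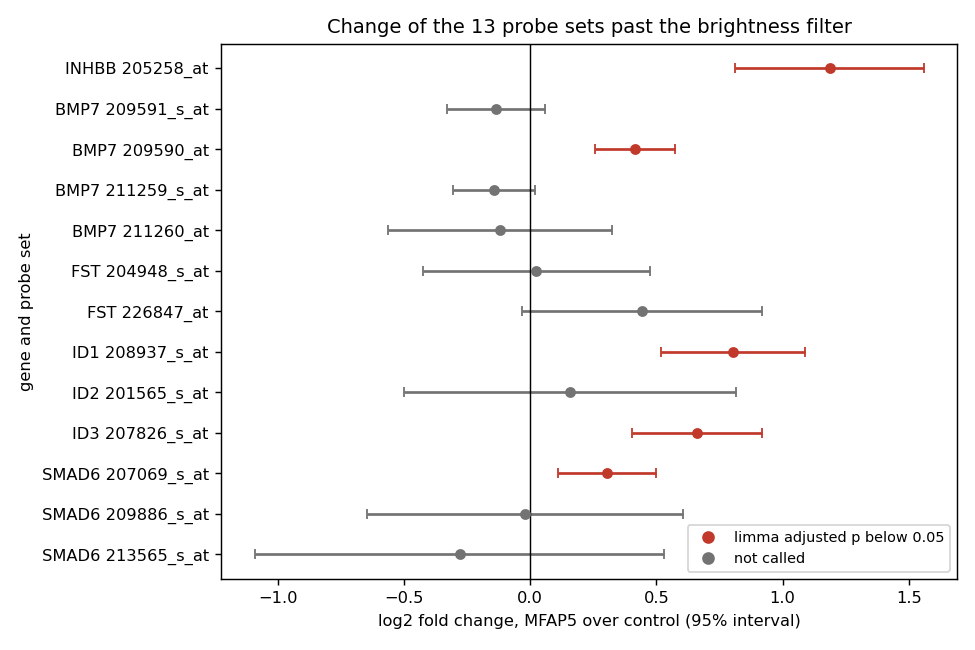
Log2 fold change of MFAP5 over control for the 13 probe sets past the brightness filter, with 95% intervals from limma, in red where the adjusted p was below 0.05. INHBB has the largest value (1.19), followed by ID1 (0.80) and ID3 (0.66), and the only other called probe sets are 209590_at of BMP7 (0.41) and 207069_s_at of SMAD6 (0.30).

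The rest of the pathway was read from 6 lists with 83 different genes, of which 76 had a probe set of their own and 40 passed the filter on their brightest probe set. Of the 40, 12 were higher with MFAP5, 4 were lower and 24 were not called. Of all 12216 genes tested, 29.9% were called in either direction. Those higher were 30% of the 40, against 14.6% of all genes, and those called in either direction were 40%. Of all genes, 15.3% were called lower. The lists were chosen with earlier results of these data known, so the excess over all genes is not an independent result. The median log2 fold change of the 40 was 0.12, against -0.0084 over all genes tested. INHBE was at background on all control arrays and entered through its MFAP5 arrays, and without it 11 of 39 were higher (28.2%) with a median of 0.07.

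Few of the other ligands were measurable, since 5 of 20 passed the filter. Of these 5, 1 was higher, 1 was lower and 3 were not called. That is 20% higher and 40% called in either direction, against 14.6% and 29.9% of all genes tested. INHBC, a further inhibin beta subunit, gave 276, 234 and 320 with MFAP5, against 308, 254 and 369 in control cells. It was not called (limma adjusted p = 0.537). INHBE, which encodes the activin subunit beta E, made mainly by liver, was higher with MFAP5, at 119.7, 142 and 131, against 35.6, 23.3 and 34.0 in control cells. All 3 control values were below the brightest Bacillus control, so INHBE was at least 3.38-fold higher, a bound taken as the mean log2 signal with MFAP5 against that control on the control arrays. Its limma adjusted p of 0.000426 rests on control values below background, in a gene that passed the filter only because its MFAP5 arrays were bright. GDF11, a ligand that uses activin receptors, was the only ligand called lower, with 537, 439 and 460.3 with MFAP5, against 1370.5, 1466 and 1379.7 in control cells. The values were far apart, a 2.95-fold difference (limma adjusted p = 4.26e-06), and the 3 further GDF11 probe sets had log2 fold changes of -0.99 to -0.84, of which 2 were called.

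Among 10 receptors and coreceptors past the filter, 2 were higher, 1 was lower and 7 were not called. That is 20% higher and 30% called in either direction, against 14.6% and 29.9% of all genes tested. BMPR2, the type II BMP receptor, gave 2245, 2271 and 2501 with MFAP5, against 1114, 1138 and 1342 in control cells, a 1.96-fold rise (limma adjusted p = 5.31e-05), and 3 of its 4 other probe sets rose as well. ACVR1, a type I receptor for BMPs, gave 842, 902 and 812 with MFAP5, against 507, 547 and 466 in control cells (1.68-fold, limma adjusted p = 0.000498). In contrast, BMPR1B, another type I BMP receptor, was lower, at 692, 686 and 777 with MFAP5, against 893, 1085 and 1168 in control cells, with a difference of -0.54 ± 0.11 in log2 (SE, limma adjusted p = 0.00644), and both of its other probe sets were called lower. The activin receptors ACVR1B, ACVR2A and ACVR2B were not called, with log2 fold changes of -0.08, -0.14 and 0.26. The type I receptor BMPR1A had no probe set of its own and was not read.

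Of 7 antagonists past the filter other than FST, all but the membrane protein CRIM1 secreted, 3 were higher and 4 were not called. By limma 0 were lower (0 also at an unadjusted p below 0.05). The share higher was 42.9%, against 14.6% of all genes tested, and 15.3% of all genes were lower. TWSG1, which binds BMPs together with chordin, gave 2132, 2457 and 2468 with MFAP5, against 1269, 1215 and 1665 in control cells (1.71-fold, limma adjusted p = 0.00113). FSTL1, a secreted relative of follistatin, rose 1.70-fold, to a mean of 4560.3 ± 232 with MFAP5, against 2681 ± 115 in control cells (SD, n = 3 each, limma adjusted p = 4.05e-05). CRIM1, which binds BMPs at the cell surface, rose 1.56-fold (limma adjusted p = 0.000484), and 1 of its 2 further probe sets was called higher. Noggin (NOG) and gremlin (GREM1) were below the Bacillus controls on all 6 arrays.

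Among 8 other SMADs and SMAD ubiquitin ligases past the filter, 4 were higher, 1 was lower and 3 were not called. That is 50% higher and 62.5% called in either direction, against 14.6% and 29.9% of all genes tested. SMAD3, the activin and TGF-beta signal carrier, gave 1561, 1364 and 1412 with MFAP5, against 645, 656 and 664 in control cells (2.20-fold, limma adjusted p = 1.18e-05), and its 3 other probe sets past the filter rose too. SMAD7, an inhibitor of both branches, gave 1199.9, 750.4 and 962 with MFAP5, against 458, 549 and 525 in control cells (1.87-fold, limma adjusted p = 0.00234). SMAD1, a carrier of BMP signals, rose 1.30-fold (limma adjusted p = 0.00464), a call lost with centring on hybridisation controls (adjusted p = 0.188, range 0.00376 to 0.188 over 14 alternatives), and its further probe set was not called (log2 fold change 0.26). The ubiquitin ligase SMURF1 was 1.26-fold higher (limma adjusted p = 0.0482), but was called in 4 of 14 alternatives, with an adjusted p of 0.0271 to 0.337, and lost the call without any 1 of the 6 arrays (0.0578 to 0.137). The 2 further SMURF1 probe sets had log2 fold changes of -0.14 and -0.06 and were not called. SMURF2, named after its value was seen because it was the only one lower, gave 4051, 4468 and 4585 with MFAP5, against 5005, 5364 and 5819.5 in control cells (limma adjusted p = 0.0159). The signal carriers SMAD2, SMAD4 and SMAD5 had log2 fold changes of -0.0048, -0.11 and 0.04 and were not called.

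Of 9 further BMP-SMAD targets past the filter, SMAD7 and ID4 were higher, HEY1 was lower and 6 were not called. That is 22.2% higher and 33.3% called in either direction, against 14.6% and 29.9% of all genes tested. ID4, the remaining member of the ID family, gave 1356, 1203 and 1348 with MFAP5, against 798, 766 and 985 in control cells. These groups did not overlap, and the rise was 1.54-fold (limma adjusted p = 0.00236), with its 3 other probe sets also called higher. HEY1, a target of Notch as well as BMP signals, was lower, at 1193, 1058 and 937 with MFAP5, against 1503, 1714 and 1570.5 in control cells (-0.59 ± 0.10 in log2, SE, limma adjusted p = 0.00208), while a further HEY1 probe set was not called. The 6 not called were MSX1 (log2 fold change 0.07), MSX2 (-0.60), BAMBI (0.40), GATA2 (-0.18), GATA3 (-0.42) and HAMP (0.46). BAMBI is a decoy receptor induced by BMPs. For MSX2 the MFAP5 and control signals did not overlap. Of the 3 E proteins that ID proteins bind, TCF12 was 1.22-fold higher (limma adjusted p = 0.0149), and TCF3 and TCF4 were not called. This 1 of 3 is 33.3%, both for higher and for either direction, against 14.6% and 29.9% of all genes tested. A further TCF12 probe set was called higher with a log2 fold change of 0.92, beside 0.28 for the brightest. The call on the brightest was lost in 6 of 14 alternatives (adjusted p 0.00677 to 0.302), among them centring on array medians (0.189) and hybridisation controls (0.302) and fits without MFAP5 replicate 2 (0.0564), MFAP5 replicate 3 (0.061) or control replicate 2 (0.0638).

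**Figure D4:**
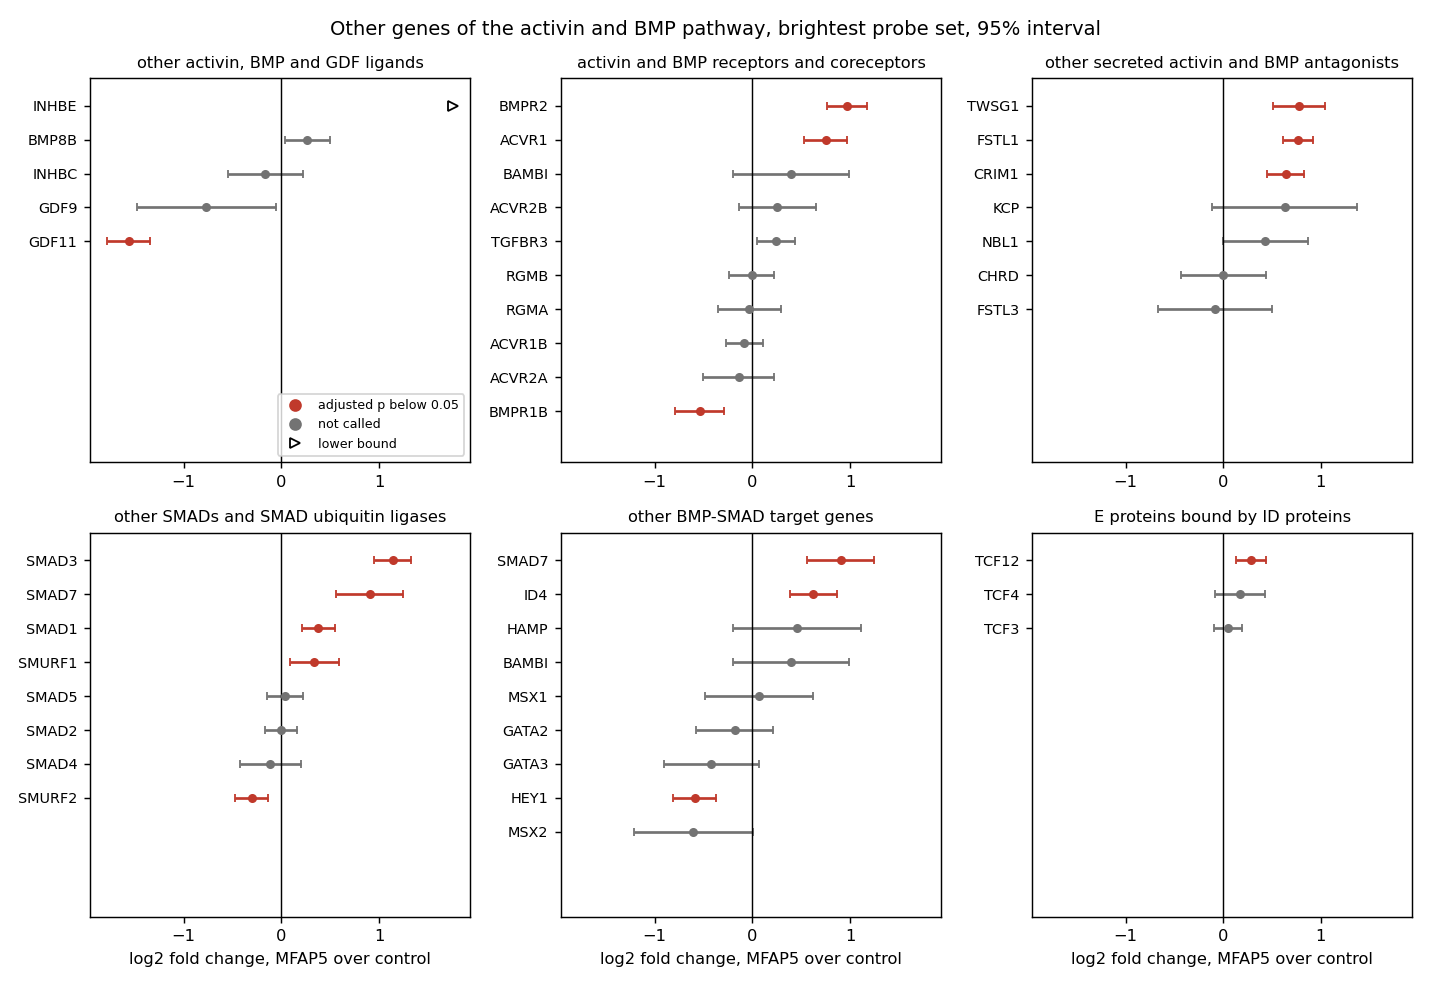
Log2 fold change of MFAP5 over control with 95% intervals for the genes of 6 pathway lists whose brightest probe set passed the filter, in red where the limma adjusted p was below 0.05. Called genes lie on both sides of 0, from GDF11 at -1.56 to SMAD3 at 1.14, the open triangle marks INHBE at its lower bound of 1.76 because its control arrays were below background, and SMAD7 and BAMBI stand in 2 panels each.

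The genes most like ID1 in their pattern were ranked by the Pearson correlation of log2 signal over the 6 arrays, among 12215 other genes past the filter. DDIT3 (r = 0.9987), OGT (0.9982) and TMEM106C (0.9979) came first, with log2 fold changes of 0.995, 0.275 and 0.444. For INHBB, ranked in the same way after its values were seen because INHBA was below background, CD34 (0.9989), MYCN (0.9938) and FAR2 (0.9932) came first. Such values are high for many genes, since all 6 points share the same 2 groups of arrays: 776 genes reached r = 0.95 with ID1 and 441 with INHBB.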

How the data were processed

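Each OVCA432 sample was hybridised to 1 Affymetrix U133 Plus array, with 3 MFAP5 and 3 control samples grouped by their titles. The values deposited by the authors are MAS5 signals, a linear intensity for each probe set. MAS5 is the only tool in the submitters' processing notes, and its version is not given in the sources used here. The trimmed mean (2% left out at each end) was 500.07 on each array, so the deposited intensities were already scaled, which hides any change shared by most transcripts. No further scaling or added constant was used in the main comparison.

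Gene symbols came from the annotation of the platform, where 41091 of 54613 probe sets had 1 symbol, 1801 several and 11721 none. The 62 control probe sets were left out of the tests. Signals were taken to log2, probe sets below the median brightness were removed (27307 left), and the 2 groups were tested by limma 3.58.1 (R 4.3.3) (eBayes with an intensity trend, 4 residual and 6.15 prior degrees of freedom), two-sided, with Benjamini-Hochberg adjustment over all 27307 and a threshold of 0.05. The fit was also run on simulated data with independent normal noise and planted changes. That was a check of the code, and no result here rests on it. The brightest probe set stood for a gene of the pathway lists. The rule for naming took, from each list, up to 4 called genes with the largest change. For members every probe set is given. Exact permutation tests were two-sided. In probe set names, _s_at and _x_at mark designs that can match several transcripts or genes. Alternatives changed the filter, the scaling, an added signal of 50, the variance trend, the arrays and the probe sets of a gene. Upstream sequences are from RefSeq (GRCh38.p14). The members and lists were chosen with earlier results of these data known.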

Additional observations from a re-analysis of the deposited data

How the results depend on the processing

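Of 180 alternative values for the 13 member probe sets tested, 152 kept both their sign and their side of the threshold. INHBB, ID1 and ID3 kept their calls in each of 14 alternatives. Among these, averaging the probe sets of a gene could not move their changes, since each had only 1 probe set. They were too dim to be tested when only probe sets above the 75% quantile of brightness were kept. That restriction left 4 member probe sets to be tested, of which 2 were called higher. Over the whole array it left 13654, of which 2422 were called higher. Centring on hybridisation controls left 3 members called higher, with 1920 higher and 2011 lower over the array. Centring on array medians moved the median log2 fold change of all probe sets to -0.12, gave 2302 higher and 5975 lower, against 3679 and 3209 in the comparison as reported, and called 2 BMP7 probe sets lower. The cause of these shifts was not tested. Without 1 array at a time, 2114 (without MFAP5 replicate 2) to 3114 probe sets over the array and 0 to 2 member probe sets (without control replicate 3) were called lower.

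Signs turned only in probe sets that were not called. FST 204948_s_at had log2 fold changes of -0.0613 with quantile normalization, -0.113 with centring on array medians and -0.0311 with centring on hybridisation controls, and -0.17 to 0.198 without 1 array. BMP7 was at 0.00434 with its probe sets averaged. Without 1 array, the ranges were -0.338 to 0.0537 for BMP7 211260_at, -0.0681 to 0.465 for ID2, -0.321 to 0.214 for SMAD6 209886_s_at and -0.584 to 0.0183 for SMAD6 213565_s_at.

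With the replicate number as a block, 5 member probe sets were called higher and 0 lower, and 4214 probe sets were called higher and 3774 lower over the array. It changed no call of a member. Deviations from the group means correlated at 0.0887, -0.00715 and 0.166 for same-numbered samples. The value of 0.166 was the highest of all pairs, while MFAP5 replicate 1 correlated better with control replicate 2 (0.103). The samples were not treated as paired because no pairing is stated. Of the members, INHBA, BMP2 and BMP4 are limited by signal, since they never rose above background.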
